A study of Homo sapiens with 18 samples.

Results

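The response of RKO-iCas9 cells to IFNγ was compared between cells carrying a guide against ERH (sgERH) and cells carrying a control guide against the AAVS1 safe-harbour locus (sgAAVS1). RKO-iCas9 derives from a line of human colon carcinoma and produces Cas9 in the presence of doxycycline. Both guides were expressed constitutively in sorted, transduced cells, and every group received 100 ng/mL doxycycline for 5 days, the controls included. The groups were sgAAVS1 and sgERH, each left non-treated (NT) or given 25 ng/mL IFNγ for 4 h. The labels gave 3 biological replicates a group. Of the 18 libraries in the series, 10 entered this comparison: 2 sgAAVS1_NT, 3 sgAAVS1_IFNγ, 3 sgERH_NT and 2 sgERH_IFNγ. They were chosen by guide and treatment alone, without sgAAVS1_NT replicate 1 and sgERH_IFNγ replicate 2, which the study had left out. Both of these libraries stood apart: the first held 52.7 CPM of ERH (CPM being a gene's reads scaled to the size of the library) and the second 126 CPM, before TMM scaling. The other sgAAVS1_NT libraries held 575.6 and 591.8 CPM and the other sgERH_IFNγ libraries 305.5 and 329.0 CPM on that scale. The first library also held fewer reads (3811492), 26.3% multimapping reads and 9657 genes with at least 10 reads. The other sgAAVS1_NT libraries held 11842 and 12127 such genes and 21.1% and 20.8% multimapping reads. In the first library ERH lay below its level in every sgERH library, so the guide label cannot be judged from ERH. The 10 libraries held 4987127 to 5986338 reads each, from QuantSeq 3′ end sequencing, and values are given as CPM after TMM scaling. Counts obtained with the left-out libraries are given at the end. What separated the biological replicates, such as the culture or the transduction, is not stated in the labels. The p-values measure the spread between libraries within the groups fitted, the 5 IL-1β libraries included. Cas9 editing gives a mixed population of cells, and in such bulk samples fewer responding cells and a smaller response per cell cannot be told apart.

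IFNγ binds the receptor made of IFNGR1 and IFNGR2, whose kinases JAK1 and JAK2 activate STAT transcription factors. These bind GAS elements near early target genes such as IRF1, itself a transcription factor that acts with IRF9-containing complexes on ISRE elements of later genes. Typical targets in epithelial cells are guanylate-binding proteins, the class I antigen presentation machinery, antiviral factors and adhesion molecules. ERH is a small conserved protein that takes part in RNA processing. The question asked was whether ERH targeting alters the IFNγ response, beyond what it does to expression without the cytokine.

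The measure used throughout is the guide difference in the response, on a log2 scale: the log2 change with IFNγ in sgERH minus the log2 change with IFNγ in sgAAVS1. A negative value means that the change was smaller, or more negative, in sgERH. It was tested with the edgeR quasi-likelihood test, and a gene was called at a Benjamini-Hochberg adjusted p of at most 0.05 and an absolute log2 value of at least 1. Of 13370 genes tested, 27 gene symbols were called (0.202%), 25 lower (0.187%) and 2 higher (0.015%) in sgERH. At an unadjusted p under 0.05 there were 781 (5.84%). The median guide difference over all genes was 0.01, and 6454 genes lay below 0. Of the called symbols, 26 are described here, 24 of them lower.

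Some of these genes carry the letters of the known elements near their start, and the windows are shown so that a reader can place them. RefSeq promoters (GRCh38.p14, from 250 bases before to 50 bases after the start) matched 18 of the 26 symbols, 17 of them among the 24 lower. BATF2, PARP9, ANXA2R, TMEM158, HELZ2, UBE2L6, PMAIP1, SP140L, WARS1 and MED25 matched and held neither motif. No promoter entry was used for APOL6, AC083837.1, NLRC5, APOL2, PML, HLA-E, WARS and TNKS1BP1. The GAS motif was searched as TTCNNNGAA, which reads the same on both strands, and the ISRE motif as GAAANNGAAA on both strands. GAS stood in 5 of the 17 promoters (29.4%, against 7.66% of all 35116 promoters) and ISRE in 5 of 17 (29.4%, against 3.57%). At least 1 of them stood in 8 of 17 (47.1%, against 10.8%). These are matches of letters and not shown binding sites. All 17 genes also rose with IFNγ in sgAAVS1, and no share was taken for other genes that rose. The shares therefore cannot be read as particular to the guide difference. Each window below is 30 bases, 5′ to 3′ on the gene's strand, with the motif in capitals. The first 5 hold GAS and the last 3 ISRE.
IRF1, chr5:132490878-132490907, motif from base -124: acagcctgatTTCCCCGAAatgacggcacg
ICAM1, chr19:10271035-10271064, motif from base -75: ggcgcgaggtTTCCGGGAAagcagcaccgc
IRF9, chr14:24161192-24161221, motif from base -63: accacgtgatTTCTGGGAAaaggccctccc
PARP14, chr3:122680789-122680818, motif from base -40: cctgggagttTTCCAGGAAacgaaagcgaa
GBP3, chr1:89022862-89022891, motif from base -15: actgagtcacTTCCTTGAAagaagtacttt
TAP1, chr6:32853819-32853848, motif from base -134 on the other strand: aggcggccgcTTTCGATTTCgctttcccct
DTX3L, chr3:122564322-122564351, motif from base -6: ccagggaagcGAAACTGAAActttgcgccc
SECTM1, chr17:82333750-82333779, motif from base -3 on the other strand: ctctcgtgtcTTTCATTTTCctggggctcc
IRF1, GBP3, TAP1 and SECTM1 lie on the minus strand of the genome and the other 4 genes on the plus strand. PARP14 and GBP3 also held an ISRE match, which began at base -29 in PARP14 and at base 3 in GBP3, without overlapping the GAS match. TAP1 held a second ISRE match from base -128, which overlaps the first.

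Of the interferon transcription factors, several had large guide differences. IRF1 stood at 24.1 and 21.4 CPM in sgAAVS1_NT and at 897, 773 and 805 CPM in sgAAVS1_IFNγ. It stood at 30.4, 25.6 and 27.9 CPM in sgERH_NT and at 118 CPM in both sgERH_IFNγ libraries. The 4 groups fell into 3 levels: both non-treated groups were close together, sgERH_IFNγ lay above them, and every sgAAVS1_IFNγ library was several times higher again. IRF1 rose by 5.18 ± 0.14 (log2 ± SE) in sgAAVS1 and by 2.07 ± 0.12 in sgERH, a guide difference of −3.11 ± 0.18 (edgeR adjusted p = 3.03e-12). The rise in mean CPM was 802 in sgAAVS1 and 89.7 in sgERH, so that 11.2% of it was kept. IRF1 was one of only 2 genes called in the IFNγ response of sgERH (0.015% of all genes), against 80 in sgAAVS1 (0.598%). GBP3 was the other. The sgERH response had 16 calls when low genes were kept, 16 when the fit held the compared groups alone and 8 with DESeq2, and leaving out sgERH_NT replicate 2 or 3 gave 4 or 5 calls.

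BATF2, a transcription factor that partners with IRF1 at interferon targets, had 0 reads in both sgAAVS1_NT libraries. With IFNγ it reached 6.86, 9.15 and 7.99 CPM in sgAAVS1, at least 27.4-fold above a floor of 3 reads over the sgAAVS1_NT group. In sgERH it stood at 1.22, 1.08 and 1.02 CPM without and at 1.29 and 0.908 CPM with IFNγ. The sgERH libraries therefore lay at one low level whatever the treatment, above sgAAVS1_NT and below sgAAVS1_IFNγ. With the sgAAVS1 response set to its bound, the guide difference was −4.78, and it was called (edgeR adjusted p = 0.00119).

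NLRC5, the transactivator of class I genes, stood at 6.72 and 3.63 CPM in sgAAVS1_NT and at 59.8, 68.9 and 67.2 CPM with IFNγ. In sgERH it stood at 6.79, 9.91 and 10.4 CPM without and at 14.4 and 22.0 CPM with IFNγ. The guide difference was −2.66 ± 0.35 (edgeR adjusted p = 7.59e-05), and 15.3% of the CPM rise was kept. IRF9, the DNA-binding part of the ISGF3 complex, went from 3.99 and 2.18 CPM to 29.9, 26.5 and 25.8 CPM in sgAAVS1. In sgERH it went from 7.83, 4.51 and 7.65 CPM to 17.8 and 11.99 CPM. At 33.8%, IRF9 kept the largest share of its rise among the 24 lower genes, with a guide difference of −2.01 ± 0.45 (edgeR adjusted p = 0.0441). Its call was lost in 9 of the 10 fits that left out 1 library, all but the one without sgERH_NT replicate 2 (−2.49 to −1.64, adjusted p 0.0693 to 0.597).

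PML, the scaffold of nuclear bodies, and SP140L, a nuclear body protein, were called with smaller differences. PML went from 11.7 ± 0.17 (SD, n = 2) to 37.3 ± 5.84 CPM (n = 3) in sgAAVS1 and from 17.6 ± 3.25 (n = 3) to 19.7 ± 1.94 CPM (n = 2) in sgERH. Its difference was −1.51 ± 0.32, and 8 of the 10 fits without 1 library lost the call, all but those without sgERH_NT replicate 2 and sgAAVS1_IFNγ replicate 3 (adjusted p 0.0753 to 0.262). SP140L went from 45.5 to 103 CPM in sgAAVS1 and from 83.8 to 89.4 CPM in sgERH (−1.09 ± 0.18). Of the 18 tested of 22 listed interferon transcription factors, 6 were called lower (0.187% of all genes were) and 0 higher (0.015%), with a median of −0.99. BATF, IRF4 and IRF8 were among the members that did not pass the filter on low counts. BATF2 passed that filter through sgAAVS1_IFNγ alone, so the negative sign of BATF2 was set in advance. As BATF2 is among the 6 called lower, that count is given as a description. Among members not called, IRF2, which competes with IRF1 for its sites, had a difference of −0.40 ± 0.26, with a 95% interval of −0.92 to 0.13. IRF3 had −0.01 and IRF5 0.23.

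**Figure D1:**
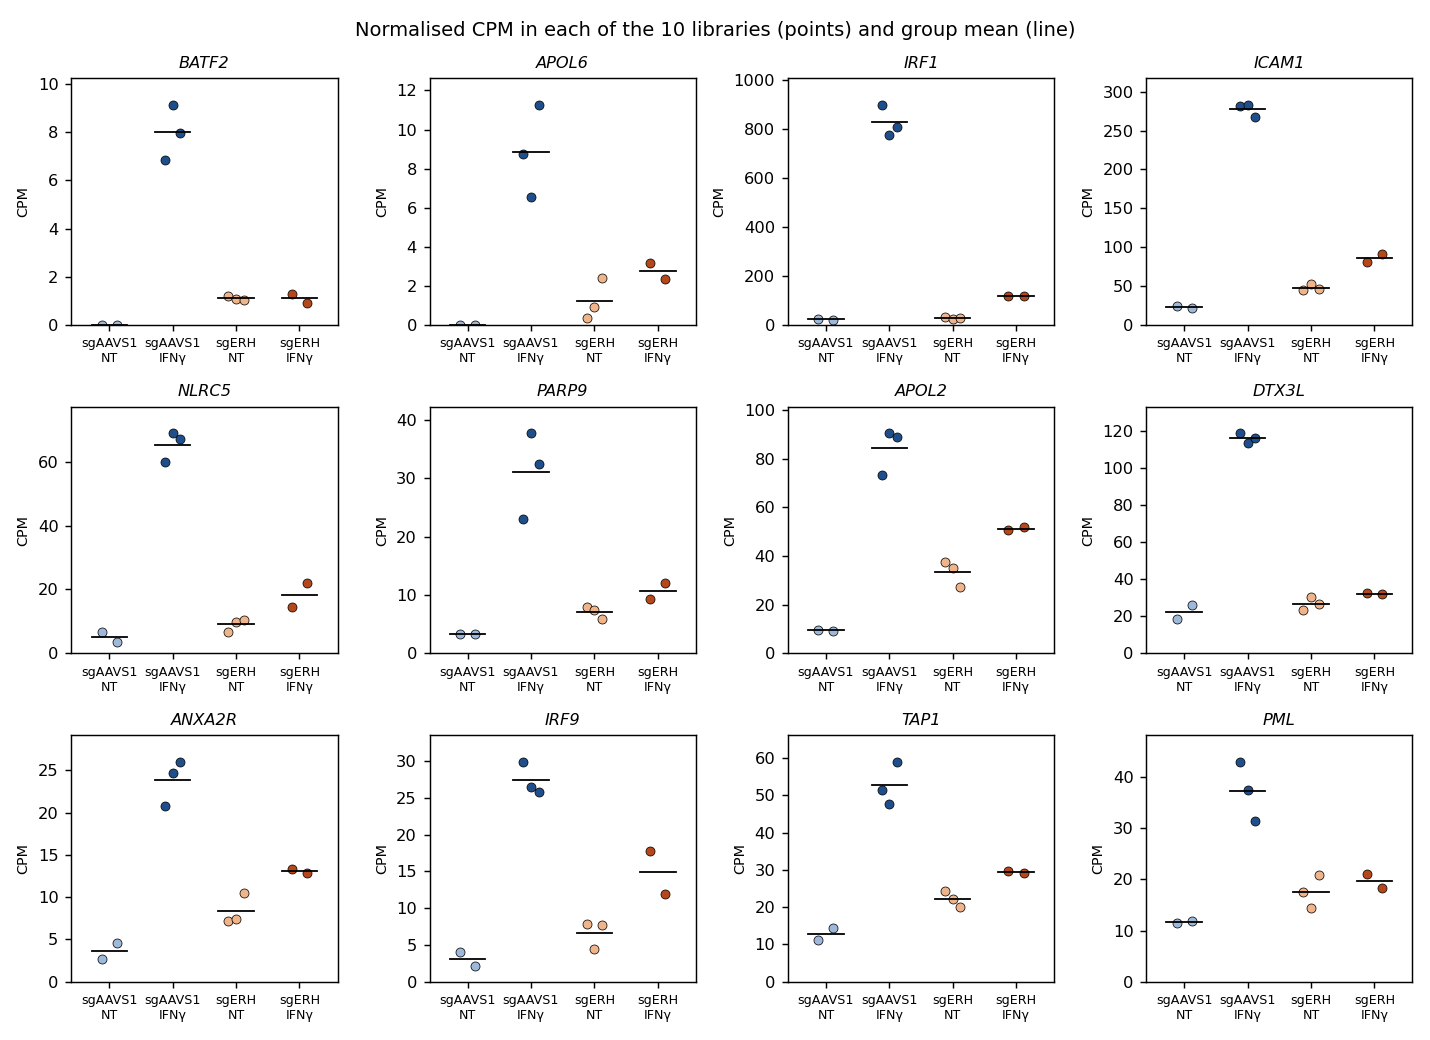
CPM after TMM scaling (linear axes from 0) of the 12 genes given in full, by guide and treatment; each point is 1 of the 10 libraries and each line a group mean. IRF1 stood at 773 to 897 CPM in the sgAAVS1_IFNγ libraries and at 118 CPM in both sgERH_IFNγ libraries, while its non-treated libraries lay between 21.4 and 30.4 CPM.

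ICAM1, the adhesion molecule bound by leukocyte integrins, had the second largest difference among called genes with reads in every group. It stood at 23.7 and 21.0 CPM in sgAAVS1_NT and at 282, 283 and 267 CPM in sgAAVS1_IFNγ. Its levels in sgERH were 45.2, 52.1 and 46.3 CPM without IFNγ and 81.4 and 90.8 CPM with it. The groups did not overlap in either treatment, and their order turned: sgERH was higher without IFNγ (1.10 ± 0.15, edgeR adjusted p = 4.16e-06) and lower with it (−1.69 ± 0.13, edgeR adjusted p = 5.63e-10). The guide difference was −2.79 ± 0.20 (edgeR adjusted p = 4.70e-10), and 15% of the CPM rise was kept. Other ligands and death genes were mostly not called: of 15 tested of 25 listed, ICAM1 alone was called (0.202% of all genes were), and the median was −0.46. IL18BP, the decoy of IL-18, had −2.50 ± 0.63 (adjusted p = 0.144), and CD274, which encodes PD-L1, had −0.08 ± 0.13 with a sgAAVS1 response of 0.10. PDCD1LG2, which encodes PD-L2, rose by 1.73 in sgAAVS1 and had a difference of −0.64 with an interval of −1.56 to 0.27. CCL2, CCL5, CXCL9, CXCL10, CXCL11, IL15, TNFSF10, TNFSF13B, VCAM1 and CASP1 did not pass the filter.

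Apolipoprotein L and guanylate-binding protein genes, which act against intracellular pathogens, gave the lowest list median, with GBP1 counted in. Of 6 tested of 13 listed, 3 were called lower (0.187% of all genes were) and all 6 lay below 0 (6454 of 13370 genes did), with a median of −2.79. The other 7, GBP4 to GBP7 and APOL3 to APOL5, did not pass the filter, which keeps low genes only where some group is high. GBP1 was high enough for it in sgAAVS1_IFNγ alone, so the negative sign of GBP1 was set in advance. The count below 0 and the list median include GBP1, so both are given as a description and nothing is read from them. APOL2 stood at 9.66 and 9.25 CPM in sgAAVS1_NT and at 73.6, 90.5 and 89.1 CPM with IFNγ. In sgERH it stood at 37.8, 35.1 and 27.2 CPM without and at 50.7 and 51.8 CPM with IFNγ. Its higher start in sgERH made up more of the difference (1.82 ± 0.19 without IFNγ) than its lower end (−0.72 ± 0.15 under IFNγ, short of the fold threshold), for a guide difference of −2.54 ± 0.24 (edgeR adjusted p = 1.54e-07).

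APOL6 had 0 reads in sgAAVS1_NT and 8.73, 6.53 and 11.3 CPM in sgAAVS1_IFNγ, at least 30.3-fold above the floor. In sgERH it stood at 0.348, 0.901 and 2.38 CPM without and at 3.14 and 2.36 CPM with IFNγ. At the bound its difference was −3.73 (edgeR adjusted p = 0.0338 in the fit). That call was lost in 7 of the 10 fits without 1 library, all but those without sgERH_NT replicates 1 and 2 and sgAAVS1_IFNγ replicate 2 (adjusted p 0.0775 to 0.296). GBP3 showed the other pattern: it started level, at 20.4 and 21.4 CPM in sgAAVS1_NT and 21.2, 21.3 and 19.4 CPM in sgERH_NT. With IFNγ it reached 135, 124 and 112 CPM in sgAAVS1 and 48.3 and 42.1 CPM in sgERH, a difference of −1.43 ± 0.22 (edgeR adjusted p = 6.11e-04), with 24.0% of the rise kept. GBP1, at 3.28 to 3.95 CPM in sgAAVS1_IFNγ and 0.555 and 1.45 CPM in sgERH_IFNγ, was not called (adjusted p = 0.614).

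The PARP family gene PARP9, its partner ubiquitin ligase DTX3L and PARP14 start near each other on chromosome 3. All 3 were called lower, of 8 tested of 9 listed (0.187% of all genes were), with a list median of −0.82. DTX3L stood at 18.7 and 25.9 CPM in sgAAVS1_NT, at 119, 114 and 116 CPM in sgAAVS1_IFNγ, at 23.1, 30.3 and 26.5 CPM in sgERH_NT and at 32.4 and 31.8 CPM in sgERH_IFNγ. Only 5.79% of its rise was kept, with a guide difference of −2.10 ± 0.23 (edgeR adjusted p = 1.92e-06). PARP9 went from 3.36 and 3.26 CPM to 23.1, 37.7 and 32.4 CPM in sgAAVS1. In sgERH it went from 8.0, 7.39 and 5.95 CPM to 9.25 and 11.99 CPM. Its difference of −2.64 ± 0.51 (edgeR adjusted p = 0.0128) was no longer called without either sgAAVS1_NT library, sgERH_NT replicate 1 or either sgERH_IFNγ library (adjusted p 0.0574 to 0.169). PARP14 went from 55.2 to 139 CPM in sgAAVS1 and from 49.0 to 60.6 CPM in sgERH (−1.03 ± 0.21). It was lost without sgAAVS1_NT replicate 3, sgERH_NT replicate 2, sgAAVS1_IFNγ replicate 2 or either sgERH_IFNγ library (−1.10 to −0.86). ZC3HAV1, the antiviral zinc finger protein of the same family, had −0.87 ± 0.17 (edgeR adjusted p = 0.0128), short of the fold threshold. PARP10 and PARP11 had 0.28 and 0.03.

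Class I antigen presentation, which loads peptides on HLA molecules, had 3 called members of 21 tested of 22 listed: NLRC5, the peptide transporter TAP1 and the heavy chain HLA-E. All 3 were called lower, against 0.187% of all genes, and the list median was −0.42. Many reads of this list were multimapping (median 71.7% per gene), so that values are uncertain: 100% for TAP1, 94.5% for HLA-E and 99.9% for B2M. TAP1 stood at 11.1 and 14.3 CPM in sgAAVS1_NT, 51.3, 47.8 and 59.0 CPM in sgAAVS1_IFNγ, 24.4, 22.2 and 20.1 CPM in sgERH_NT, and 29.8 and 29.1 CPM in sgERH_IFNγ. The guide difference was −1.63 ± 0.27 (edgeR adjusted p = 0.00227), and it was not called without sgAAVS1_NT replicate 2 (adjusted p = 0.0590). HLA-E went from 33.2 to 101 CPM in sgAAVS1 and from 66.9 to 86.7 CPM in sgERH. Its difference of −1.23 ± 0.18 lay mainly in the non-treated level (1.01 ± 0.14, called), and under IFNγ the guides differed by −0.22 ± 0.12. With uniquely mapping reads alone HLA-E had an adjusted p of 0.830. The immunoproteasome subunit PSMB9, with 100% multimapping reads, had −1.84 ± 0.49 (adjusted p = 0.227) and B2M, the light chain, −0.42 ± 0.15 (adjusted p = 0.614). HLA-B and HLA-C had −0.25 and −0.19.

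**Figure D2:**
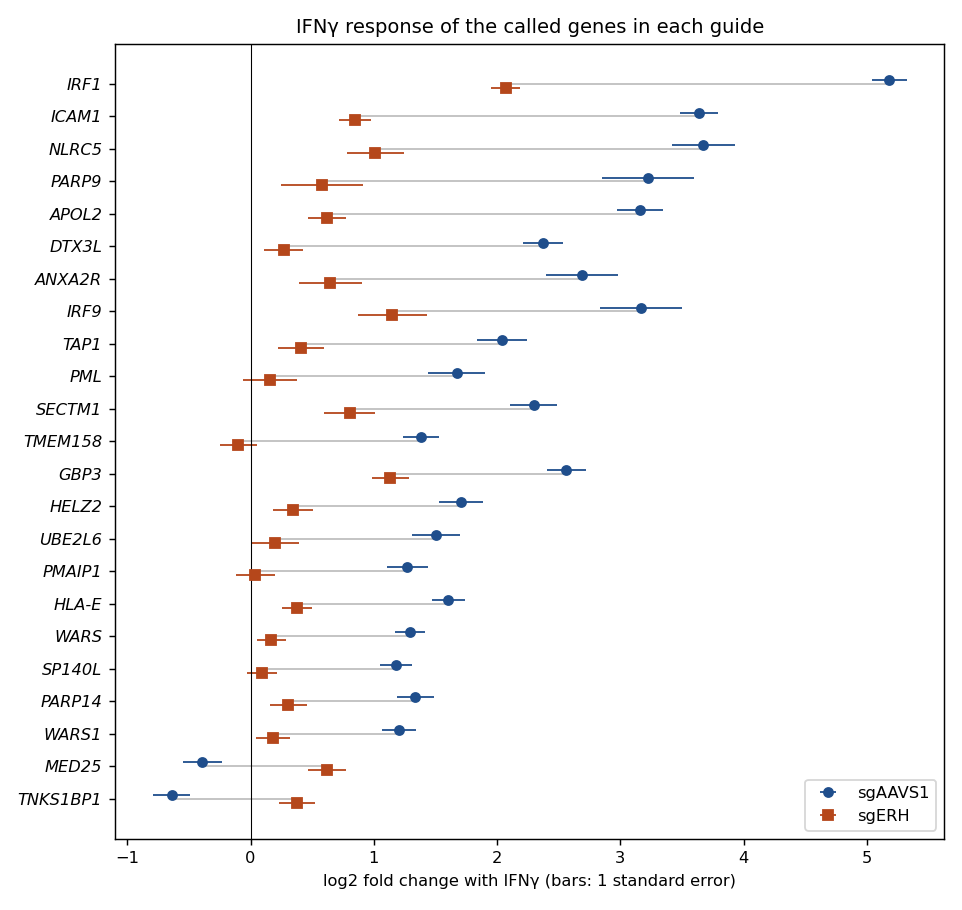
Log2 fold change with IFNγ in sgAAVS1 (circles) and sgERH (squares) for the 23 described genes that had reads in sgAAVS1_NT; bars are 1 standard error and grey lines join the guides. For the first 21 genes the sgERH value lies to the left, from IRF1 (5.18 and 2.07) to WARS1 (1.204 and 0.18), and for MED25 and TNKS1BP1 it lies to the right.

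Among other genes known to respond to IFNγ, 4 symbols of 27 tested of 41 listed were called lower, against 0.187% of all genes. SECTM1, a secreted and transmembrane ligand, stood at 21.6 and 20.3 CPM in sgAAVS1_NT and at 101, 105 and 103 CPM with IFNγ. Its levels in sgERH were 7.31, 11.9 and 13.9 CPM without and 19.98 and 18.7 CPM with IFNγ, so that every sgERH library lay below every sgAAVS1 library. It was lower with either treatment (−0.92 ± 0.21 without, −2.41 ± 0.19 with IFNγ). The guide difference of −1.49 ± 0.28 (edgeR adjusted p = 0.00976) was lost without either sgAAVS1_NT library, sgERH_NT replicate 3 or either sgERH_IFNγ library (adjusted p 0.0590 to 0.106). UBE2L6, the conjugating enzyme of the ubiquitin-like ISG15, went from 24.4 to 69.3 CPM in sgAAVS1 and from 28.5 to 32.8 CPM in sgERH (−1.30 ± 0.27). Its call held in 1 of the 10 fits without 1 library, that without sgERH_NT replicate 3 (adjusted p 0.0615 to 0.287 in the others). The tryptophanyl-tRNA synthetase gene was listed under its older symbol WARS (−1.13 ± 0.17) and its current one WARS1 (−1.02 ± 0.19), so that the 26 symbols stand for 25 genes. WARS stood at 89.4 and 96.8 CPM in sgAAVS1_NT, 227, 226 and 233 CPM in sgAAVS1_IFNγ, 98.8, 94.3 and 105 CPM in sgERH_NT and 122 and 102 CPM in sgERH_IFNγ. WARS1 lost its call without sgAAVS1_NT replicate 2 (−0.96) or sgERH_IFNγ replicate 3 (−0.87).

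Called genes outside the lists were TMEM158, ANXA2R, HELZ2, PMAIP1, AC083837.1 and TNKS1BP1. TMEM158, a membrane protein linked to Ras signalling, stood at 87.3 and 68.5 CPM in sgAAVS1_NT and at 186, 211 and 211 CPM in sgAAVS1_IFNγ. In sgERH it stood at 66.8, 68.8 and 75.3 CPM without and at 52.9 and 78.5 CPM with IFNγ. Its change in sgERH was −0.10 ± 0.15 and the guide difference −1.48 ± 0.21 (edgeR adjusted p = 2.18e-04). ANXA2R, the annexin A2 receptor, went from 2.73 and 4.53 CPM to 20.8, 24.6 and 26.0 CPM in sgAAVS1. In sgERH it went from 7.13, 7.39 and 10.5 CPM to 13.3 and 12.9 CPM (−2.04 ± 0.39, edgeR adjusted p = 0.0124). This was lost without sgAAVS1_NT replicate 2, sgERH_NT replicate 3 or either sgERH_IFNγ library (adjusted p 0.0627 to 0.196).

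HELZ2, a helicase that acts as a nuclear receptor coactivator, had −1.37 ± 0.24, and PMAIP1, which encodes the death-promoting BH3 protein NOXA, had −1.23 ± 0.23. Both were lost without sgAAVS1_NT replicate 2 or sgERH_IFNγ replicate 1, HELZ2 at adjusted p 0.0693 and 0.0734 and PMAIP1 at 0.152 and 0.155. PMAIP1 went from 32.1 to 77.9 CPM in sgAAVS1 and stood at 52.2 and 53.6 CPM in sgERH without and with IFNγ. AC083837.1, for which the file gives no other name, had 0 reads in sgAAVS1_NT and 2.70, 1.49 and 1.43 CPM in sgAAVS1_IFNγ, at least 6.43-fold above the floor. It stood at 1.22, 1.98 and 3.23 CPM in sgERH_NT and at 1.66 and 2.00 CPM in sgERH_IFNγ, and its call held in 1 of the 10 fits without 1 library, that without sgERH_NT replicate 1 (adjusted p 0.0541 to 0.386 in the others).

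Only MED25 and TNKS1BP1 were called higher in sgERH. MED25, a Mediator subunit, stood at 38.2 and 43.2 CPM in sgAAVS1_NT and 30.3, 35.1 and 27.6 CPM in sgAAVS1_IFNγ. In sgERH it stood at 32.5, 27.2 and 30.3 CPM without and 47.5 and 44.9 CPM with IFNγ, a guide difference of 1.01 ± 0.22 (edgeR adjusted p = 0.0338). TNKS1BP1, a tankyrase-binding protein, went from 35.9 and 36.5 CPM to 23.9, 22.2 and 23.6 CPM in sgAAVS1 and from 28.9, 32.4 and 29.4 CPM to 43.5 and 35.1 CPM in sgERH (1.02 ± 0.21, edgeR adjusted p = 0.0289). Neither gene was called in the IFNγ response of either guide. Both stood just past the fold threshold and were short of it with DESeq2 size factors (0.99 for each), with the DESeq2 test, when low genes were kept and when the fit held the compared groups alone. With all 18 libraries neither was called either. Of the fits without 1 library, 9 of 10 lost MED25, all but that without sgAAVS1_IFNγ replicate 2 (adjusted p 0.0511 to 0.384). For TNKS1BP1 8 of 10 lost the call, all but those without sgERH_NT replicate 2 and sgERH_IFNγ replicate 3 (adjusted p 0.0588 to 0.439). Of all 32 Mediator genes, MED25 was the only one called (0.202% of all genes were), and the median was −0.03.

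The guide difference can be written as the difference between guides under IFNγ minus that without treatment, and the 24 lower symbols differed in which of the 2 was called. Over all genes, 1102 differed between guides without treatment (8.24%) and 1017 under IFNγ (7.61%). These comparisons share libraries with the guide difference itself, so the values stand side by side as a description. In sgERH, 14 of 24 were called lower under IFNγ (2.37% of all genes were) and 10 of 24 were called higher without treatment (5.95% of all genes were). None was called higher under IFNγ (5.24% of all genes were), and none lower without treatment (2.3%). Called lower under IFNγ and not higher without it were IRF1, NLRC5, DTX3L, SECTM1, TMEM158, GBP3, UBE2L6, WARS, PARP14 and WARS1. Called higher without IFNγ and not lower under it were AC083837.1, APOL2, ANXA2R, IRF9, HELZ2 and HLA-E. BATF2, APOL6, ICAM1 and PARP9 were both, and TAP1, PML, PMAIP1 and SP140L were neither. These classes rest on the fold threshold, and genes outside a class can still differ. TAP1 differed by 0.79 without treatment and −0.84 under IFNγ (edgeR adjusted p = 0.00515 and 0.00109). Without treatment SP140L differed by 0.88 and SECTM1 by −0.92 (edgeR adjusted p = 1.24e-05 and 0.00152), and under IFNγ APOL2 by −0.72 (edgeR adjusted p = 0.00075). In 23 of 24 every sgERH_IFNγ library lay below every sgAAVS1_IFNγ library, against 25.7% of all genes. In 16 of 24 every sgERH_NT library lay above every sgAAVS1_NT library, against 27.6% of all genes.

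All 24 were called higher with IFNγ in sgAAVS1, against 0.598% of all genes. The 24 were chosen for a negative guide difference in these same libraries. A large sgAAVS1 rise and a low kept share follow in part from that choice, so both are given as a description. The share of the CPM rise kept in sgERH ran from −16.7% to 33.8%, with a median of 11.9%. It is lowest for AC083837.1, which changed by −0.312 CPM in sgERH, and TMEM158 (−3.72%) and BATF2 (−0.0623%) also lay below 0.

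**Figure D3:**
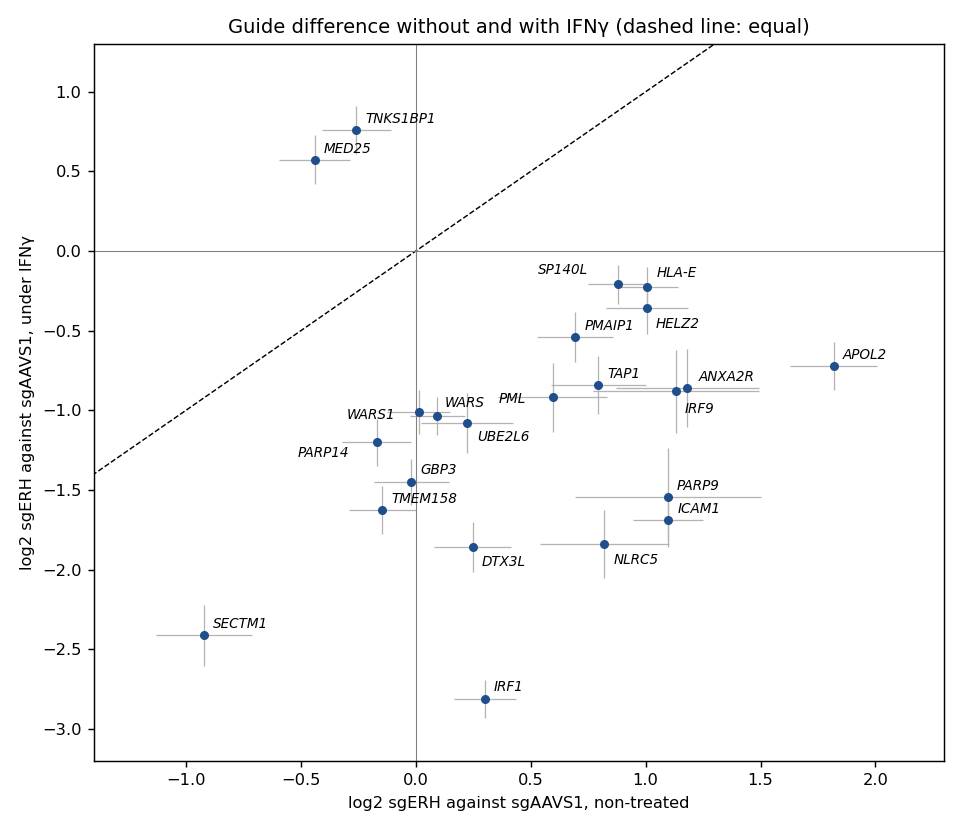
Log2 difference between guides without treatment (horizontal axis) and under IFNγ (vertical axis) for the 23 described genes with reads in sgAAVS1_NT; bars are 1 standard error and the dashed diagonal marks no guide difference in the response. The lower genes lie below the diagonal, some by standing low on the vertical axis (IRF1, 0.30 and −2.81) and some by standing to the right (APOL2, 1.82 and −0.72).

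The receptor, kinase and feedback genes of the pathway were read separately. Of 20 tested of 21 listed, 1 member was called, IRF9 (0.202% of all genes were called). PTPN6 did not pass the filter. IFNGR1, the ligand-binding chain, stood at 2.73 and 4.17 CPM in sgAAVS1_NT, at 4.30 to 7.90 CPM in sgAAVS1_IFNγ, at 3.42 to 8.70 CPM in sgERH_NT and at 8.32 and 10.5 CPM in sgERH_IFNγ, with groups that overlapped in part and a guide difference of −0.35 ± 0.58 (adjusted p = 0.967). JAK1 lay between 87.2 and 104 CPM in all 10 libraries, with −0.09 ± 0.17. JAK2 stood at 44.1 and 54.9 CPM in sgAAVS1_NT, 36.4, 51.3 and 47.5 CPM in sgAAVS1_IFNγ, 37.9, 27.8 and 36.6 CPM in sgERH_NT, and 44.0 and 44.5 CPM in sgERH_IFNγ. The lowest library was in sgERH_NT, which overlapped sgAAVS1_IFNγ and lay below both sgAAVS1_NT and sgERH_IFNγ. Its guide difference was 0.51 ± 0.24 with a 95% interval of 0.01 to 1.01, and it was not called (adjusted p = 0.831). The level differed by −0.54 ± 0.17 between guides without treatment (edgeR adjusted p = 0.0206, short of the fold threshold) and by −0.03 ± 0.17 under IFNγ. For IFNGR2, 99.0% of reads were multimapping, so its difference of 0.01 ± 0.25 is uncertain.

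STAT3 rose in sgAAVS1 by 1.06 ± 0.15, from 54.2 and 38.4 CPM to 101, 95 and 93.2 CPM. Its levels in sgERH were 55.7, 55.5 and 56.1 CPM without and 60.5 and 66.3 CPM with IFNγ. The sgERH_IFNγ libraries lay between the sgERH_NT and the sgAAVS1_IFNγ libraries without overlap, but the guide difference of −0.88 ± 0.20 was not called (adjusted p = 0.0686). STAT2, the partner of IRF9, had −0.70 ± 0.26 (adjusted p = 0.645). The feedback inhibitor SOCS3 stood at 3.99 and 11.1 CPM in sgAAVS1_NT, at 54.6, 44.8 and 52.0 CPM in sgAAVS1_IFNγ, at 11.83, 10.3 and 17.9 CPM in sgERH_NT and at 22.6 and 24.2 CPM in sgERH_IFNγ. The 2 sgAAVS1_NT libraries were far apart, and its difference of −1.91 ± 0.66 was not called (adjusted p = 0.680). SOCS1 had 0 reads in sgAAVS1_NT, 1.23 to 2.49 CPM in sgAAVS1_IFNγ and 1.53 to 3.88 CPM over the sgERH libraries (adjusted p = 0.351). The phosphatases PTPN1, PTPN2 and PTPN11, the SUMO ligases PIAS1, PIAS3 and PIAS4 and the kinase TYK2 had differences from −0.38 to 0.22, none called. Of the PTPN11 reads, 54.6% were multimapping, so its value is uncertain. For the type I receptor chains IFNAR1 and IFNAR2 the values were −0.25 and −0.30.

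ERH itself was read at 629 and 643 CPM in sgAAVS1_NT and at 601, 562 and 606 CPM in sgAAVS1_IFNγ. It was read at 323, 264 and 308 CPM in sgERH_NT and at 286 and 313 CPM in sgERH_IFNγ. It stood lower in every sgERH library used than in every sgAAVS1 library used, by −1.09 ± 0.12 without and −0.98 ± 0.12 with IFNγ, and its guide difference in the response was 0.11 ± 0.17. The reads come from the 3′ end of the transcript, so they check the guide's cut only indirectly.

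Antiviral genes, which block viral entry, RNA or translation, had no called member among 29 tested of 41 listed by the edgeR test and 1, IFIT5, by DESeq2. At an unadjusted p under 0.05 there were 11 lower and 0 higher, against 5.84% of all genes in either direction. Of the 29, 25 lay below 0 (6454 of 13370 genes did), with a median of −0.41. IFIT5 stood at 15.4, 20.2 and 12.1 CPM in sgAAVS1_IFNγ and at 5.73 and 5.99 CPM in sgERH_IFNγ, against 2.31 to 7.75 CPM in the non-treated libraries. Its difference was −2.22 ± 0.51 (adjusted p = 0.0686). SAMD9L went from 1.05 and 1.09 CPM to 11.84, 10.45 and 12.5 CPM in sgAAVS1 and from 3.83, 4.15 and 2.72 CPM to 8.51 and 7.08 CPM in sgERH (−2.28 ± 0.59, adjusted p = 0.166). TRIM69, with 99.9% multimapping reads, had −1.34 ± 0.34 (adjusted p = 0.155), and TRIM25, the ubiquitin ligase of RIG-I, −0.89 ± 0.25 (adjusted p = 0.291). IFIT1, IFIT2, MX2, OAS1, OAS2, OASL, RSAD2, IFI44, IFI44L, DHX58, TRIM22 and XAF1 did not pass the filter.

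**Figure D4:**
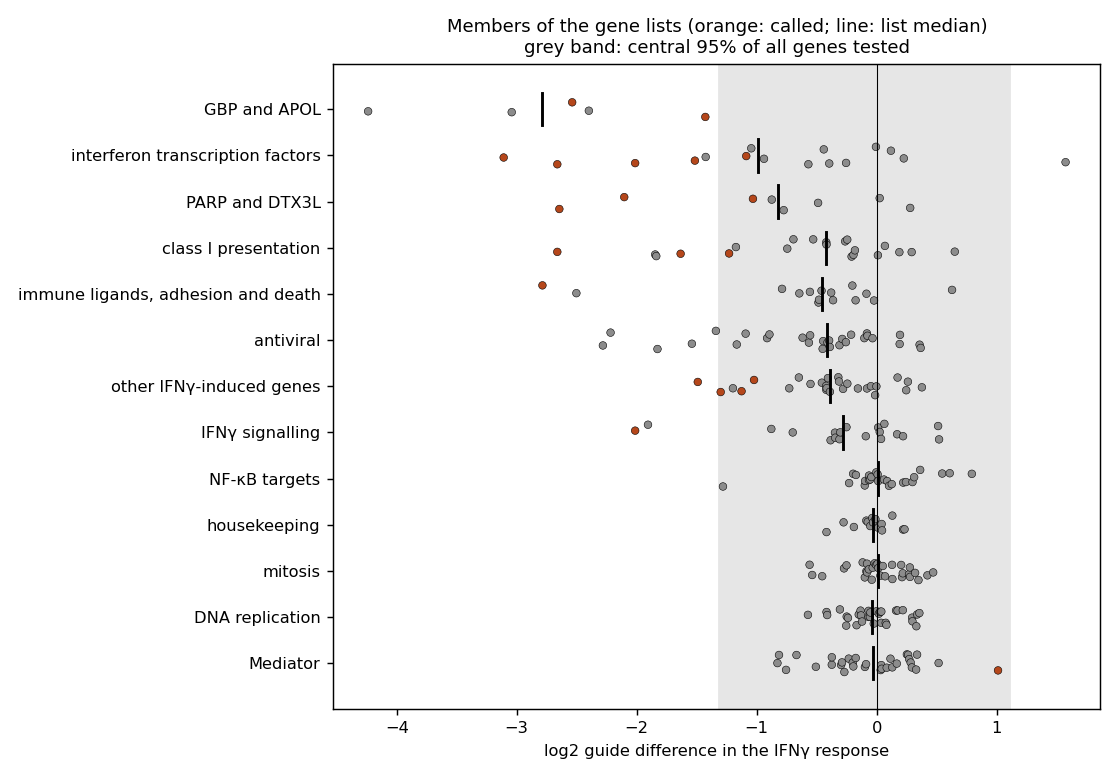
Guide difference in the IFNγ response (log2) of each tested member of 13 gene lists; orange points were called and grey ones were not, vertical lines are list medians, and the grey band, from −1.31 to 1.11, holds the central 95% of all genes tested. Members with 0 reads in sgAAVS1_NT are not drawn. GBP and APOL genes lie to the left of the band, and NF-κB targets, housekeeping, mitosis and DNA replication genes have medians between −0.04 and 0.01.

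The 4 lists taken for comparison had medians near that of all genes. They are not free of IFNγ-responsive genes: B2M is in both the housekeeping and the class I list, and CSF1, an NF-κB target, was called in the sgAAVS1 response (2.21). The median guide difference was 0.01 for 27 NF-κB targets, −0.03 for 15 housekeeping genes, 0.01 for 32 mitosis genes and −0.04 for 32 DNA replication genes. The edgeR test called none of these genes, nor did DESeq2. The NF-κB targets CSF3 and CCL20 had 0 reads in sgAAVS1_NT and an sgAAVS1 response of 0. Their differences (0 with a standard error of 0, and −0.78 ± 1641) carry no information. At an unadjusted p under 0.05 NF-κB targets and DNA replication genes each had 1 lower and 1 higher. Housekeeping genes had 1 lower and mitosis genes 1 higher, against 5.84% of all genes in either direction. The guides themselves did differ for these lists: mitosis genes had a median of −1.08 and DNA replication genes of −0.88 in sgERH against sgAAVS1 without treatment, and −0.99 and −0.88 under IFNγ. Housekeeping genes had medians of −0.40 without and −0.43 with IFNγ, and NF-κB targets went the other way, with 0.49 and 0.74. The part of these list differences in the results above was not tested. Leukocyte markers (14 genes, 13 at 0 reads) summed to at most 0.395 CPM in any library, and fibroblast and endothelial markers (10 genes, 6 at 0) to at most 0.954 CPM. Of 11 epithelial and colon markers 4 were tested, KRT8, KRT18, EPCAM and CDX2, and summed levels over the list, before TMM scaling, were 136 to 145 CPM in sgAAVS1_NT, 128 to 138 in sgAAVS1_IFNγ, 114 to 120 in sgERH_NT and 106 to 122 in sgERH_IFNγ. The sum was carried by KRT18, with mean levels of 109 CPM in sgAAVS1_NT and 57.9 CPM in sgERH_NT and of 96.9 and 57.4 CPM under IFNγ. EPCAM went the other way and was called higher in sgERH, by 1.48 ± 0.26 without treatment and 1.37 ± 0.24 under IFNγ, with mean levels of 5.95, 16.8, 6.34 and 16.4 CPM in the same order. CDX2 differed by 0.30 ± 0.26 and 0.98 ± 0.26 and KRT8 by −0.13 ± 0.17 and −0.54 ± 0.18, neither called. The part of these differences in the results was not tested. KRT19, KRT20, CDX1, VIL1 and CEACAM5 had no reads in these libraries.

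A further 6 genes passed an adjusted p of 0.05 and missed the fold threshold, all with a negative difference. At that threshold alone 0.232% of all genes had a lower value. Those described here were named after their values were seen. Besides ZC3HAV1 they were the nuclear noncoding RNA NEAT1 (−0.99 ± 0.18), the transcription factor MAFF (−0.93 ± 0.20), the ubiquitin ligase TRIM56 (−0.88 ± 0.18) and the protease CTSC (−0.71 ± 0.16). NEAT1 stood at 106 and 94.8 CPM in sgAAVS1_NT and 145, 187 and 188 CPM in sgAAVS1_IFNγ, but at 189 to 264 CPM in all 5 sgERH libraries, those without IFNγ included. CTSC stood at 145 and 154 CPM in sgAAVS1_NT and at 201 to 245 CPM in the other 8 libraries, where sgAAVS1_IFNγ and the sgERH groups overlapped.

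Of the 80 genes that rose with IFNγ in sgAAVS1, genes with the smallest guide differences included IRF2 (−0.40), DDX58, which encodes the RNA sensor RIG-I (−0.40), GCLM (−0.54), PDCD1LG2 (−0.64), ERAP2 (−0.69), ERI1 (−0.74), PRRG1 (−0.78), DYRK4 (−0.80) and AL136295.5 (−0.82). None was called. These genes were chosen by their sgAAVS1 response, which shares its libraries with the guide difference, so nothing is read from their common negative sign. ERAP2, an aminopeptidase that trims class I peptides, went from 11.97 and 6.35 CPM to 29.7, 30.05 and 29.5 CPM in sgAAVS1. In sgERH it went from 12.7, 13.3 and 17.5 CPM to 29.2 and 29.8 CPM. It thus ended level in both guides, with 72.8% of the CPM rise kept, and its difference of −0.69 ± 0.31 lay in the non-treated level. DDX58 kept 60.7% of its rise, but its interval ran from −1.48 to 0.68. IRF2 went from 21.6 and 18.7 to 39.5, 45.0 and 45.9 CPM in sgAAVS1 and from 19.8, 13.9 and 15.5 to 28.3 and 25.6 CPM in sgERH, with 45.3% kept.

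IL-1β, which signals to NF-κB, served as the nearest comparison in the series (10 ng/mL for 4 h, 2 sgAAVS1 and 3 sgERH libraries). The guide difference was taken again with the IL-1β libraries in place of the non-treated ones. This shares the IFNγ libraries with the main comparison but uses no non-treated library. It called 23 genes (0.172%), 22 of them lower (0.165%), and 14 of the 24 lower symbols were among them. IRF1 had −3.58 ± 0.17, DTX3L −2.21, APOL2 −2.14, NLRC5 −2.08, ICAM1 −1.91, TMEM158 −1.63, GBP3 −1.57, TAP1 −1.48, SECTM1 −1.43, UBE2L6 −1.26, WARS −1.22, PARP14 −1.18, WARS1 −1.16 and HLA-E −1.02. IRF1 was read at 27.7 and 33.2 CPM in sgAAVS1_IL-1β and at 52.9, 52.0 and 50.9 CPM in sgERH_IL-1β, so that here sgERH was the higher. ICAM1, also an NF-κB target, reached 153 and 176 CPM in sgAAVS1_IL-1β and 182, 229 and 165 CPM in sgERH_IL-1β. Under IL-1β its groups overlapped, while under IFNγ they did not.

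BATF2 (−3.50, adjusted p = 0.11), PARP9 (−1.53, adjusted p = 0.427), ANXA2R (−1.18), PML (−1.18), SP140L (−0.91), APOL6 (−0.60), IRF9 (−0.85) and PMAIP1 (−0.72) were not called against IL-1β, and neither were AC083837.1 and HELZ2. Lower against IL-1β, though not called in the main comparison, were genes such as PSMB9 (−2.81) and TRIM69 (−2.03), both read almost entirely from multimapping reads, the small nuclear RNA symbol RNU1-2 (−1.67), IRF2 (−1.22), TRIM25 (−1.20) and TRIM56 (−1.07). NFKBIA, the NF-κB inhibitor, was called higher (1.38, edgeR adjusted p = 0.0492), with a value of −0.003 in the main comparison. The count of 23 went to 62 without sgERH_IL-1β replicate 3 to 11 and 14 without sgAAVS1_IL-1β replicates 1 and 2, and to 13 and 12 without sgERH_IFNγ replicates 1 and 3. With uniquely mapping reads it was 15.

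The count of called symbols depended on the libraries used. With all 18 libraries it was 3, among them IRF1 (−2.97, edgeR adjusted p = 4.92e-05) and ICAM1 (−2.48, edgeR adjusted p = 0.00485). In that fit WARS1 (−0.16), PML (−0.44), PARP14 (−0.47), WARS (−0.64), UBE2L6 (−0.74), SP140L (−0.76) and GBP3 (−0.79) also fell short of the fold threshold. The other lower symbols described ran from −1.225 (TMEM158) to −8.04 (BATF2). Before scaling, the left-out library labelled sgAAVS1_NT replicate 1 held 25.7 CPM of IRF1 and sgERH_IFNγ replicate 2 held 104.6 CPM, against 125.7 and 123.6 CPM in the other sgERH_IFNγ libraries. For ICAM1, sgAAVS1_NT replicate 1 was close to its group, at 18.6 CPM against 21.7 and 19.4 CPM. Other values were further off. In sgERH_IFNγ replicate 2, ICAM1 stood at 141.4 CPM against 87.0 and 95.4 CPM, and PARP9 at 1.63 CPM against 9.88 and 12.6 CPM. PARP9 had 0 CPM in sgAAVS1_NT replicate 1, against 3.07 and 3.01 CPM. Without sgAAVS1_NT replicate 2 the count was 17, without sgERH_IFNγ replicate 1 it was 16 and without sgERH_IFNγ replicate 3 it was 17, the remaining library then being assumed to vary like the other groups. BATF2, IRF1, ICAM1, NLRC5, APOL2, DTX3L, TMEM158, GBP3, HLA-E, WARS and SP140L kept their call in all 10 fits that left out 1 library.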

How the data were processed

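RNA of RKO-iCas9 cells was profiled by QuantSeq 3′ end sequencing of polyadenylated transcripts. The authors checked reads with FastQC 0.11.8, trimmed them with Trim Galore 0.6.2, mapped them to GRCh38 with SlamDunk, and deposited whole-number read counts per gene over 3′ end windows, multimapping reads included (20.38% to 21.85% of the reads used). Columns on T-to-C conversion were not used. Library depth was 4987127 to 5986338 reads, and genes with few reads are the least precise.

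From the deposited counts, genes were filtered by expression and scaled by TMM. The robust quasi-likelihood test of edgeR 4.0.16 (R 4.3.3) was fitted to 6 group means over 15 libraries, of the 18 labelled, without the 3 that the study left out. Bounds for genes with 0 reads use a floor of 3 reads over the group. All error terms of log2 values are standard errors from this fit. Alternatives were DESeq2 1.42.0 and its size factors, no filter, only the groups compared, all 18 libraries, uniquely mapping reads, a replicate block and leaving out each library. Scripts were tested on simulated data. A chi-square test of reads over genes, at 2.93 to 5.61 per degree of freedom, found each replicate pair further apart than counting error.

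Named genes were all those called (the 12 with the largest absolute value and at least 5 CPM in full), ERH and the signalling list, up to 4 members with the smallest p per other list, the 10 genes called in sgAAVS1 with the smallest guide difference, and those called in sgERH. Members, lists and tests were chosen with earlier results of these data known. One called gene and some other members are not reported here. Promoter sequences came from RefSeq.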

Additional observations from a re-analysis of the deposited data

Results flagged for a closer look

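All 26 described symbols had a response that differed between guides by the interaction term itself, each at an edgeR adjusted p of at most 0.05, and the 4 groups behind each value share the libraries used in the report. Fitted values were −8.43 for BATF2, −7.40 for APOL6 and −6.56 for AC083837.1. These 3 had 0 reads in sgAAVS1_NT, so the fitted values depend on the prior count and are no bound. At the floor of 3 reads they were −4.78, −3.73 and −2.91. Of the transcription factors, IRF1 had −3.11, NLRC5 −2.66, IRF9 −2.01, PML −1.51 and SP140L −1.09. ICAM1 had −2.79. In the PARP group the values were −2.64 (PARP9), −2.10 (DTX3L) and −1.03 (PARP14). APOL2 had −2.54 and GBP3 −1.43, while TAP1 had −1.63 and HLA-E −1.23. For the remaining lower symbols they were −2.04 (ANXA2R), −1.49 (SECTM1), −1.48 (TMEM158), −1.37 (HELZ2), −1.30 (UBE2L6), −1.23 (PMAIP1), −1.13 (WARS) and −1.02 (WARS1). MED25 had 1.01 and TNKS1BP1 1.02.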

How the results depend on the processing

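The guide difference called 27 symbols, and with all 18 libraries 3, of which all 3 were shared; DESeq2 size factors gave 27, no filter 35, DESeq2 29, only the groups compared 35 and uniquely mapping reads 26, with 24 to 25 shared. Leaving out 1 library gave 16 to 23. The 2 calls in the sgERH response became 16 with no filter, 8 with DESeq2, 16 with only the groups compared, 1 with all 18 libraries, 5 with uniquely mapping reads and 2 to 5 without 1 library (4 without sgERH_NT replicate 2, 5 without sgERH_NT replicate 3). With all 18 libraries the sgAAVS1 response had 22 calls in place of 80 (56 to 83 without 1 library), the non-treated guide comparison 677 in place of 1102 (852 to 1051), that under IFNγ 390 in place of 1017 (721 to 944), and that against IL-1β 2 in place of 23 (11 to 62, and 15 with uniquely mapping reads). The cause was not tested.

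Of the 26 described symbols, IRF1 and ICAM1 kept their call under every alternative, 11 kept it without any 1 library, and 0 reversed. With all 18 libraries the sign of 3 named genes not called turned: TRIM56 to 0.064, ERH to −0.73 and GCLM to 0.42. The replicate block gave 23 calls, 22 of them shared, and lost AC083837.1, PML, UBE2L6, PARP14 and WARS1; same-numbered libraries deviated together (r over 0.1) in 3 of 12 pairs, which were the 3 among the replicate 2 libraries (0.105 to 0.324), and not in the other 9, so the numbers were not taken to pair samples. The median of all genes lay between −0.0684 and 0.0181 under every setting. Groups of 2 and 3 libraries and genes with few reads limit what could be called.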
